A study of Homo sapiens with 4 samples.

Results

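The interferon-stimulated genes examined here are a list of 41 genes of the interferon response, most of them known to be induced by interferons, matched by gene symbol to an RNA-seq table of Reh-6-MPR cells. All 41 were found among the 29833 genes of the table. The match used symbols only and no level, but the list was chosen with earlier results of these data known. The contrasts of members with all genes below are therefore descriptions. Of the 41 members, 36 had a mean level of at least 1 FPKM over the 4 libraries and enter the counts below, where genes with such a mean are called tested. FPKM is a level per length, the reads of a gene per kilobase and per library depth. The other 5 members, IRF9, OASL, IFI27, IFI44L and ISG20, lay below that mean and are given by their reads. MX1 passed at a mean of 1.00 FPKM, just inside. Its mean without the combined library was 0.804 FPKM, so it passed only through that library. The nearest member outside was ISG20 at a mean of 0.267 FPKM.

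Reh is an established human cell line of B-cell acute lymphoblastic leukemia, and Reh-6-MPR is a derivative made resistant to the thiopurine 6-mercaptopurine (6-MP). Whether the derivative is 1 clone is not stated in the sources used here. All 4 libraries come from these resistant cells, and the study's methods describe no knockdown or overexpression in the cells sequenced. Cells were kept for 48 h in PBS (vehicle), in 4 mM histidine, in 1.0 μg/mL 6-MP, or in both agents together (the combined treatment). Histidine is an amino acid whose breakdown consumes tetrahydrofolate, and the experiment asked which transcripts answer to histidine and 6-MP alone and together. Each treatment had 1 library, so no difference below has a replicate check and no test of a treatment could be made.

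Interferons bind receptors at the cell surface whose JAK kinases phosphorylate transcription factors, among them STAT2. STAT2 and IRF9 are subunits of a complex that binds the interferon-stimulated response element in the promoters of target genes, and interferon gamma acts through another sequence, the gamma-activated site. The induced proteins detect foreign RNA and DNA, block translation, trap viruses at membranes and conjugate the ubiquitin-like protein ISG15, and many are also present at a low level in lymphoid cells that have met no virus.

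The depth ranged from 14316493 to 15486376 reads in the vehicle and single-agent libraries and was 12899122 in the combined one, where 25443 genes were above 0, against 23635 to 23978. Intervals given below are exact Clopper-Pearson 95% intervals on the reads, cover counting error only, and compare libraries. The B-lineage label was checked with 13 marker genes. Of these, 12 were matched, and their summed level ranged from 1894 to 2068 FPKM, lowest with the combined treatment. Its genes went both ways there against vehicle, with CD24 at a log2 fold change of -0.59 and MME at 0.74. Of 6 T cell markers, 2 were matched, with a sum of 11.6 to 12.3 FPKM in 3 libraries and 32.3 FPKM with the combined treatment, nearly all of it TRAC. The log2 fold change of TRAC for both agents over vehicle was 1.39, larger than that of any tested member. CD8A had 0 reads in the vehicle and histidine libraries, 3 in the 6-MP library and 9 in the combined one. Of 9 monocyte and granulocyte markers, 5 were matched, with 30.1 to 34.3 FPKM in 3 libraries and 62.9 FPKM with both agents, mostly MPO and ITGAM. Of these, ITGAM stood at 3.14, 3.16, 3.06 and 19.2 FPKM (256, 278, 267 and 1407 reads) with vehicle, histidine, 6-MP and both, a log2 fold change of 2.28 for both agents over vehicle, larger than that of any tested member. In this list LYZ had 8, 1, 3 and 31 reads and CSF1R 46, 50, 34 and 83 reads with vehicle, histidine, 6-MP and both, and CD14 had 1 to 4 reads. Of 5 plasmacytoid dendritic cell markers, 2 were matched, IL3RA and TCF4, at a sum of 11.8 to 12.6 FPKM against 16.9 FPKM, mostly TCF4. IL3RA stood at 1.80, 2.72, 1.98 and 5.58 FPKM (44, 72, 52 and 123 reads) with vehicle, histidine, 6-MP and both. Its log2 fold change for both agents over vehicle was 1.23, also larger than that of any tested member. Of 8 erythroid and stromal markers, 3 were matched, with a sum of 0.869 to 1.11 FPKM against 2.04 FPKM, nearly all of it COL1A1 (112, 146 and 142 reads against 237), and HBB had at most 1 read. The sums of the other 4 lists were higher with the combined treatment, as many members were, and their part in the members' values was not tested.

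The promoters of the members carried the core of the response element more often than promoters at large. RefSeq promoters (GRCh38.p14), running from 250 bases before to 50 bases after the gene start, were matched for 32 of the 41 members. The element's core, spelled GAAANNGAAA and sought on both strands, was found in 22 of these 32 members (68.8%), against 4.38% of the 27305 genes with a promoter and 3.57% of all 35116 promoters. The gamma-activated site, spelled TTCNNNGAA, was found in 10 of the 32 members (31.2%), against 9.38% of all genes. Counted per promoter window there were 46 core matches, at 42 distinct sites, since windows of the alternative starts of IFI44 and IFI27 overlap and PARP9 and DTX3L share 1 site. Of the 46, 45 began within the 200 bases before the start, with a median position of -93. Such a match is a description of letters in the reference and not of binding in these cells. The neighbours HERC5 and HERC6 on chromosome 4 show both cases and are printed in full on the plus strand, since HERC5 had the highest log2(FPKM + 1) difference of the tested members for the combined treatment over vehicle. In HERC5 (chr4:88456869-88457168) the capitals mark 3 matches to the core, of which the first 2 overlap, and in HERC6 (chr4:88378602-88378901) none was found.
HERC5: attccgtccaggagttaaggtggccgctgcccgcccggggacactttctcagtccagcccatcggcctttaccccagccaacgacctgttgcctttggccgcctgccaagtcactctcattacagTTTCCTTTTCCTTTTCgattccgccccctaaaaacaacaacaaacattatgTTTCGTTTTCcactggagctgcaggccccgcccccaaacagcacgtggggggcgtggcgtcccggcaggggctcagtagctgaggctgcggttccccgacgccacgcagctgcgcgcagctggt
HERC6: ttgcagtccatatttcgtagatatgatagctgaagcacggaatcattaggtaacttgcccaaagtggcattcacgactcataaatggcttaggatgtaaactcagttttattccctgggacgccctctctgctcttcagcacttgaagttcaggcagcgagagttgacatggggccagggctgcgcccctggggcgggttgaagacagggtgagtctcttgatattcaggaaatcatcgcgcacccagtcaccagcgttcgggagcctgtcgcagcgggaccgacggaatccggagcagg

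Shorter windows show the core in 8 further members, 5′ to 3′ on the gene's strand, with each match that lies whole within the 30 bases in capitals. In ISG15 and BST2 these are 2 overlapping matches. The MX1 match begins 11 bases after the gene start, and that of IFIT5 begins at -4 and runs across the start. The first 5 are members that were higher with the combined treatment beyond counting error, namely SAMD9 (chr7:93118096-93118125, minus strand), MX1 (chr21:41420559-41420588, plus), IFI44 (chr1:78649761-78649790, plus), DDX60 (chr4:168318786-168318815, minus) and ISG15 (chr1:1013380-1013409, plus). The last 3 are members whose interval against vehicle included no difference, IFIT1 (chr10:89392510-89392539, plus), IFIT5 (chr10:89414554-89414583, plus) and BST2 (chr19:17405735-17405764, minus).
SAMD9: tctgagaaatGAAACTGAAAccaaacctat
MX1: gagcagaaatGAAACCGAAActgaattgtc
IFI44: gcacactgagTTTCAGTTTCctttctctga
DDX60: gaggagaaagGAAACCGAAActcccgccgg
ISG15: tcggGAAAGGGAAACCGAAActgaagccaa
IFIT1: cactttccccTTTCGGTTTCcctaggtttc
IFIT5: atttcttaagTTTCAGTTTCtgagcgctcg
BST2: ctggGAAACTGAAACTGAAAacctaattaa

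The same core thus stood in the promoter windows of genes that differed much and genes that differed little between these libraries. The 19 tested members with a match had a median log2 fold change of 0.35 for the combined treatment against vehicle, ranging from 0.028 to 1.13. The 9 tested members with a promoter and no match had a median of 0.19, ranging from -0.34 to 0.84. The 2 ranges overlapped over most of their width, and whether the 2 sets differ was not tested. The other 8 tested members, IRF7, IRF3, OAS2, IFIT2, MX2, IFITM2, USP18 and TRIM22, and the untested OASL had no promoter entry.

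With histidine and 6-MP together, most members were higher than with vehicle, by small folds. Fold changes are differences of log2(FPKM + 1) and understate the change of genes at low FPKM. The members past a log2 fold change of 1 were HERC5 (1.13), USP18 (1.10) and TRIM22 (1.07). These 3 of 36 members compare with 5.01% of all 12750 genes tested (3.46% of protein-coding genes). No member was lower by that size, against 1.51% of all genes. The median member differed by 0.37 against 0.13 for all genes, and 32 of the 36 members lay above 0, as did 63.6% of all genes. In such bulk RNA more cells of a kind and more RNA per cell cannot be told apart.

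Members were also compared by their reads per library total, with counting error. The interval of this ratio lay above 0 for 26 of the 36 members against vehicle, where 42.7% of all genes did, and below 0 for 2, IRF1 and UBE2L6, where 20.8% did. The FPKM of the combined library was the highest of the 4 for 31 of the 36 members, against 53.8% of all genes, and the lowest for IRF1, IRF3, IFITM2 and UBE2L6, against 28.8%. Against all 3 other libraries at once, the interval lay above 0 for 24 members, against 34.24% of all genes, and below 0 for IRF1 only, against 16.56%. The 3 comparisons share the combined library and are not independent. MX1, tested only through the combined library, is among the 26, the 31 and the 24 members. The shares of all genes rest on the same filter, whose mean includes that library. The direction of IFIT5, IFITM1, IFITM3 and BST2 against vehicle turned to lower when libraries were scaled by their median ratio, which moves the median of all genes from 0.13 to 0.0014, and no member then passed a log2 fold change of 1 over vehicle. With that scaling applied to the read ratio, a choice made after seeing the data, the interval lay above 0 against all 3 libraries for 20 members, against 23.21% of all genes, without OAS1, OAS2, DTX3L and IFI35. It lay below 0 against all 3 for 4, IRF1, IRF3, IFITM2 and UBE2L6, against 24.41%.

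**Figure D1:**
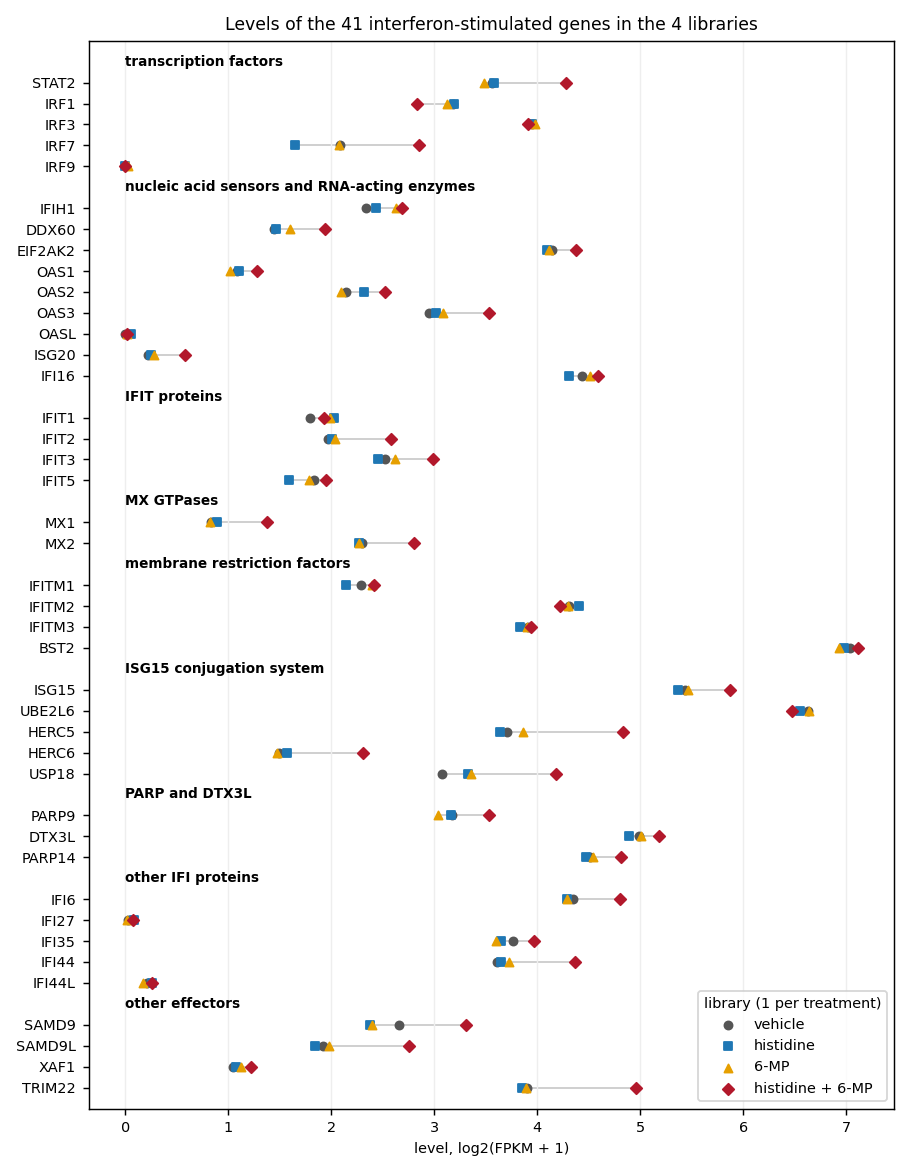
Levels of the 41 members by role. The x axis is log2(FPKM + 1), each row is a gene, each marker is the 1 library of a treatment, and the grey line spans the 4 libraries. The combined treatment (diamonds) is the rightmost marker for 31 of the 36 tested members, with the widest gaps to the next marker for TRIM22, HERC5 and USP18.

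Either agent alone left the members close to vehicle. With histidine alone 0 of 36 members passed a log2 fold change of 1 in either direction, against 0.8% of all genes higher and 0.533% lower. With 6-MP alone it was again 0 of 36, against 0.463% higher and 0.722% lower. The median member differed by -0.033 with histidine and by 0.0029 with 6-MP, and the medians of all genes were 0.015 and 0.0039. Members ranged from -0.44 (IRF7) to 0.25 (USP18) with histidine and from -0.26 (SAMD9) to 0.30 (IFIH1) with 6-MP.

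A few members differed from vehicle beyond counting error with a single agent. The interval of the read ratio lay above 0 with histidine for 3 members, OAS2, IFIT1 and USP18, against 12.9% of all genes, and below 0 for 6, IRF7, IFI16, IFIT5, UBE2L6, DTX3L and SAMD9, against 8.73%. With 6-MP it lay above 0 for 5, IFIH1, DDX60, OAS3, HERC5 and USP18, against 9.98%, and below 0 for 3, BST2, PARP9 and SAMD9, against 7.92%. Over 36 members these counts stood near the shares of all genes, except that 6 of 36 below 0 with histidine was a higher share than that of all genes. Of these 6, the intervals of UBE2L6 and IFIT5 ended close to 0, at -0.0008 and -0.018. The share below 0 with histidine was 10.2% among protein-coding genes. Under median-ratio scaling 7 members lay below 0 with histidine, against 12.41% of all genes. USP18 was the only member above 0 and SAMD9 the only member below 0 with both agents given singly. Under median-ratio scaling the histidine intervals of USP18 and IFIT1 included 0 and that of EIF2AK2 lay below 0.

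**Figure D2:**
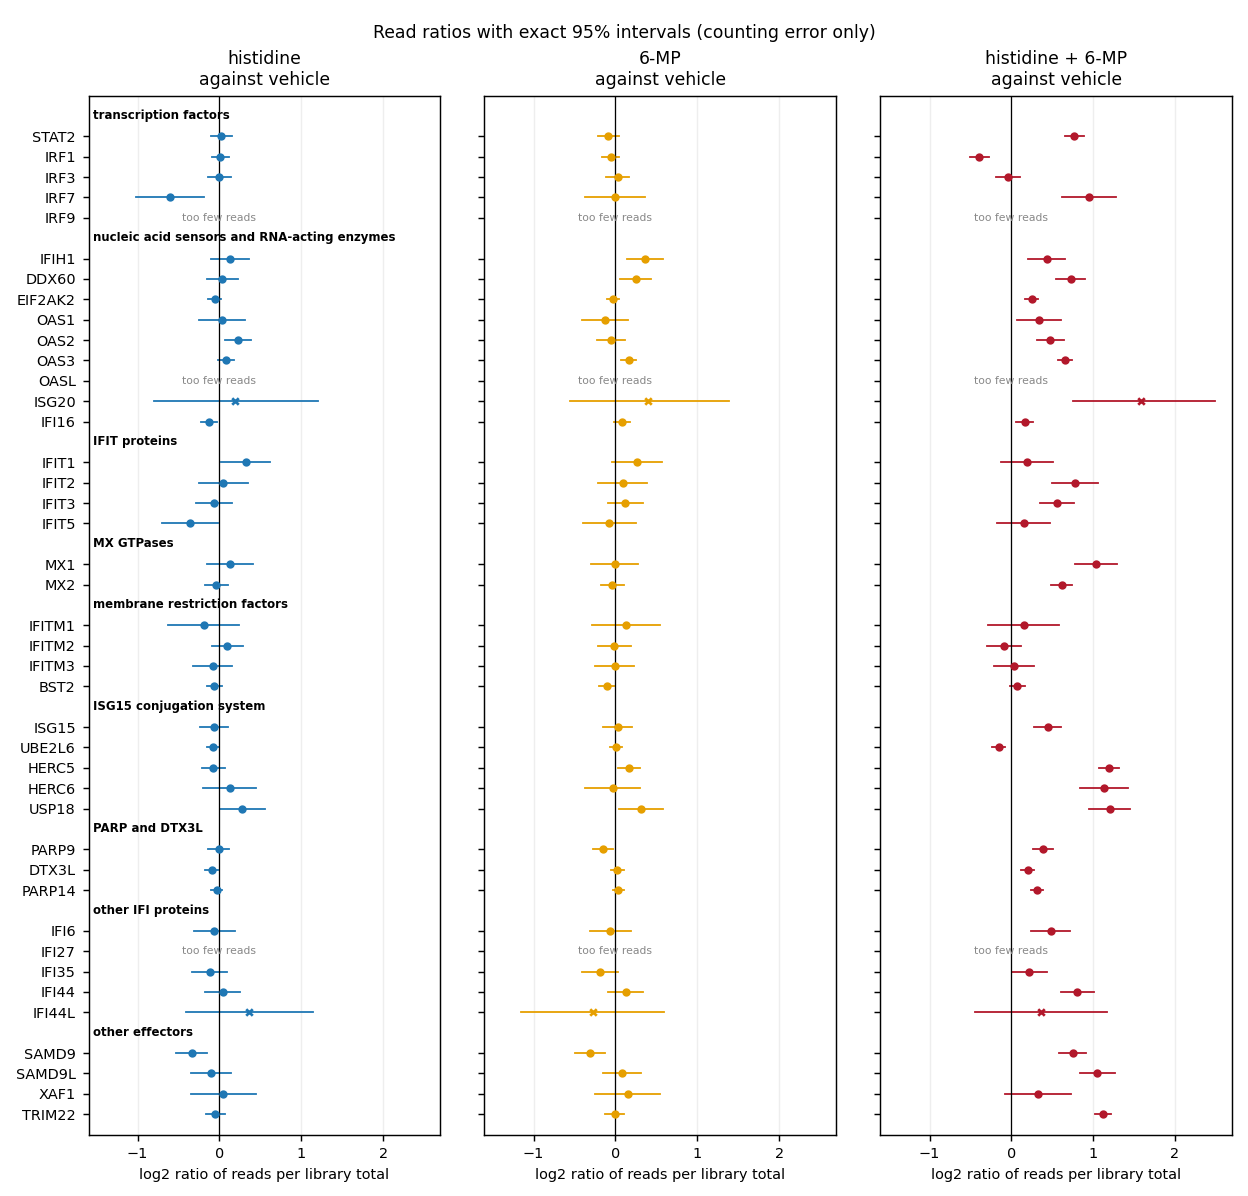
Read ratios of the members against vehicle for histidine (left), 6-MP (middle) and the combined treatment (right). The x axis is the log2 ratio of reads per library total, points are ratios, bars are exact 95% intervals for counting error, crosses are members below the mean of 1 FPKM, and members without a ratio are marked as having too few reads. Most points of the right panel lie above 0 (26 of 36 tested intervals), and those of the other 2 panels lie around it.

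**Figure D3:**
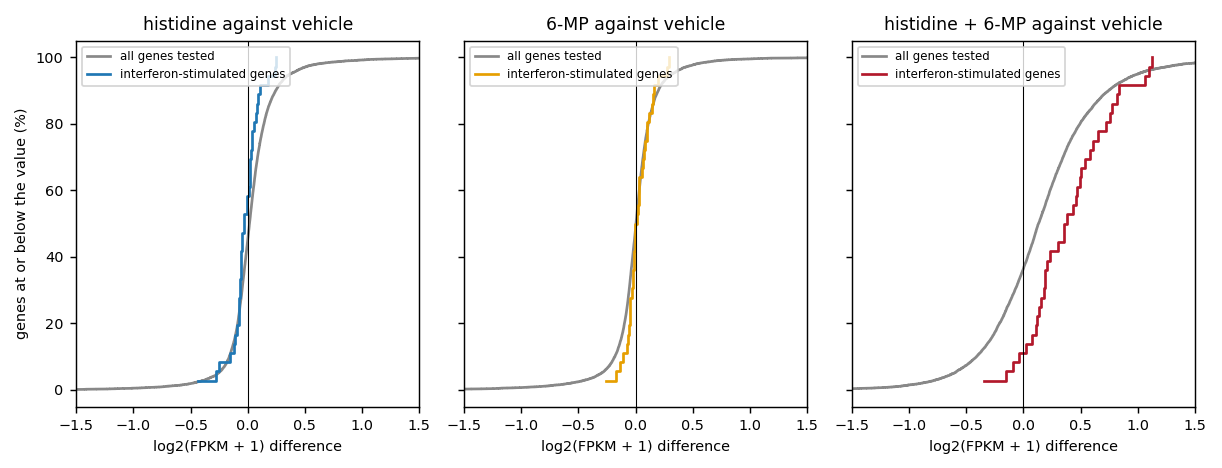
Cumulative share of genes by log2(FPKM + 1) difference from vehicle, for the 36 tested members (coloured steps) and all 12750 genes tested (grey), 1 panel per treatment. The x axis is cut at 1.5 in both directions, and the y axis is the percentage of genes at or below a value. The member curve lies to the right of the grey curve over most of the panel of the combined treatment (medians 0.37 and 0.13) and near it in the other 2.

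Among the transcription factors of the pathway, STAT2 and IRF7 were higher with the combined treatment, IRF3 stayed within counting error and IRF1 was lower. From here on the values of a gene run in the order vehicle, histidine, 6-MP, combined treatment. STAT2 (chr12:56341597-56360167), a subunit of the complex that binds the response element, stood at 10.8, 11.0, 10.2 and 18.4 FPKM (958, 1054, 967 and 1472 reads). IRF7 (chr11:612553-615983), the factor that drives interferon alpha genes, stood at 3.24, 2.13, 3.22 and 6.23 FPKM (121, 86, 129 and 210 reads). Both were highest with the combined treatment, by log2 fold changes of 0.72 and 0.77 over vehicle, and IRF7 was the lowest of its 4 values with histidine. IRF7 passed a log2 fold change of 1 only against histidine (1.21), where its own level with histidine was -0.44 relative to vehicle.

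IRF1 and IRF3 followed another pattern. IRF1 (chr5:132440440-132508719), a factor that interferon gamma induces and that binds the response element, stood at 8.05, 8.11, 7.74 and 6.14 FPKM (1414, 1541, 1456 and 972 reads). Its read ratio with the combined treatment was -0.39 (-0.51 to -0.27) against vehicle, -0.40 (-0.52 to -0.28) against histidine and -0.33 (-0.45 to -0.21) against 6-MP. It was lower beyond counting error against all 3 libraries with either scaling, and its row overlaps an antisense gene, IRF1-AS1. IRF3, the factor that RNA and DNA sensors activate first, stood at 14.4, 14.4, 14.7 and 14.0 FPKM (784, 846, 857 and 687 reads), and its 4 values overlapped within counting error in all 5 comparisons, though under median-ratio scaling it was lower with the combined treatment against all 3 libraries. IRF9, the DNA-binding subunit of the STAT complex, had 0, 0, 1 and 0 reads. In GENCODE 29, 88.9% of the coding bases of IRF9 are shared on the same strand with the read-through gene AL136295.5, and what this does to its count was not tested.

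The 7 tested sensors and RNA-acting enzymes were all higher with the combined treatment than with vehicle, at log2 fold changes from 0.16 to 0.58, none past 1. All 7 tested members had an interval above 0 against vehicle, where 42.7% of all genes did. Under median-ratio scaling those of OAS1 and IFI16 included 0. IFIH1, the cytosolic sensor MDA5 of long double-stranded RNA, stood at 4.05, 4.42, 5.19 and 5.45 FPKM (295, 349, 406 and 358 reads). DDX60, a helicase tied to RNA sensing, stood at 1.72, 1.76, 2.04 and 2.84 FPKM (427, 473, 543 and 635 reads). EIF2AK2, the kinase PKR that halts translation on double-stranded RNA, stood at 16.7, 16.0, 16.4 and 19.8 FPKM (2637, 2742, 2771 and 2821 reads). IFIH1 was already higher with 6-MP alone, by a read ratio of 0.36 (0.14 to 0.58), and its combined level then differed from 6-MP by 0.069 (-0.14 to 0.28), which includes 0. DDX60 showed the same with 6-MP alone (0.25, interval 0.061 to 0.43) but went on to differ from 6-MP in the combined library (0.48, interval 0.31 to 0.64).

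The 2′-5′ oligoadenylate synthetases, which make short RNA-like messengers on double-stranded RNA, lie side by side on chromosome 12. The 3 tested ones had their highest level with the combined treatment, as 53.8% of all genes did. OAS1 stood at 1.13, 1.15, 1.03 and 1.42 FPKM (210, 232, 206 and 239 reads). OAS2 stood at 3.41, 3.98, 3.27 and 4.73 FPKM (548, 693, 564 and 686 reads). OAS3 stood at 6.71, 7.10, 7.51 and 10.6 FPKM (1733, 1983, 2079 and 2457 reads). Their log2 fold changes over vehicle were 0.19, 0.38 and 0.58, and their read-ratio intervals, 0.34 (0.064 to 0.61), 0.47 (0.31 to 0.64) and 0.65 (0.56 to 0.74), overlapped. OAS3 was higher with 6-MP alone (0.16, interval 0.070 to 0.26) and OAS2 with histidine alone (0.23, interval 0.062 to 0.39). OASL, a catalytically inactive relative, had 0, 4, 1 and 1 reads, so no fold is given.

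IFI16, a sensor of DNA, stood at 20.6, 18.9, 21.8 and 23.1 FPKM (1562, 1546, 1771 and 1577 reads), and its interval lay above 0 against vehicle and histidine but not against 6-MP (0.083, interval -0.016 to 0.18). ISG20, an exonuclease that degrades RNA, had 17, 21, 24 and 46 reads and lay under 1 FPKM in each library (0.165, 0.189, 0.218 and 0.496 FPKM). Its read ratio of the combined library to vehicle was 1.59 (0.76 to 2.48). This was the highest read ratio to vehicle of the members given one, from few reads, and its fold on the log2(FPKM + 1) scale was only 0.36.

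The IFIT genes, whose proteins bind viral RNA and translation factors, form a row on chromosome 10 in the order IFIT2, IFIT3, IFIT1 and IFIT5. IFIT2 stood at 2.92, 3.02, 3.10 and 5.00 FPKM (181, 202, 206 and 279 reads). IFIT3 stood at 4.73, 4.50, 5.15 and 6.95 FPKM (343, 353, 400 and 454 reads). Both were highest with the combined treatment, with read ratios over vehicle of 0.77 (0.50 to 1.05) and 0.55 (0.35 to 0.76). IFIT1 stood at 2.47, 3.08, 2.97 and 2.82 FPKM (163, 220, 210 and 168 reads) and IFIT5 at 2.57, 2.01, 2.45 and 2.86 FPKM (161, 136, 164 and 161 reads). IFIT1 was highest with histidine, and its combined level differed from none of the other 3 beyond counting error. IFIT5 was lowest with histidine (-0.36, interval -0.70 to -0.018 against vehicle) and differed with the combined treatment only against histidine (0.51, interval 0.17 to 0.85).

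The MX GTPases, which block incoming viral ribonucleoproteins and capsids, are neighbours on chromosome 21 and were both higher with the combined treatment. MX1 stood at 0.781, 0.855, 0.776 and 1.59 FPKM (201, 238, 214 and 370 reads). MX2 stood at 3.92, 3.82, 3.82 and 6.00 FPKM (818, 861, 853 and 1127 reads). With either agent alone they differed from vehicle by less than counting error. Their log2 fold changes over vehicle were close, 0.54 and 0.51, while their read ratios were 1.03 (0.78 to 1.29) and 0.61 (0.48 to 0.74), since the pseudocount of 1 weighs more on MX1 at its lower level.

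The membrane restriction factors showed little difference between the libraries. IFITM1 stood at 3.90, 3.41, 4.26 and 4.33 FPKM (93, 88, 109 and 93 reads), IFITM2 at 18.9, 20.2, 18.7 and 17.7 FPKM (407, 471, 432 and 344 reads) and IFITM3 at 14.0, 13.3, 14.0 and 14.3 FPKM (286, 292, 305 and 263 reads). These proteins hinder the fusion of viruses with cell membranes. The interval of each of the 3 included 0 in all 5 comparisons, except that under median-ratio scaling that of IFITM2 lay below 0 for the combined treatment against all 3 libraries. IFITM1 and IFITM2 share 32.5% and 22.8% of their exon bases in GENCODE 29, and how reads in the shared stretch were counted is not given in the sources used here. BST2, the tetherin that holds budding virions at the surface, was the member with the highest level, 131, 125, 121 and 137 FPKM (2058, 2132, 2045 and 1950 reads). It was slightly lower with 6-MP alone (-0.11, interval -0.20 to -0.020), and its combined level lay above histidine (0.13, interval 0.046 to 0.22) and 6-MP (0.18, interval 0.091 to 0.27) but not clearly above vehicle (0.073, interval -0.017 to 0.16). Under median-ratio scaling its combined level differed from none of the 3 beyond counting error.

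Of the 5 members of the ISG15 conjugation system, 2 passed a log2 fold change of 1 with the combined treatment over vehicle, HERC5 and USP18, as 5.01% of all genes did. Under median-ratio scaling neither passed, against 3.63% of all genes. The system also held a member that was lower. ISG15 (chr1:1001138-1014540), the ubiquitin-like modifier itself, stood at 42.3, 40.4, 43.1 and 57.5 FPKM (525, 542, 573 and 643 reads). UBE2L6, its conjugating E2 enzyme, stood at 97.7, 92.7, 98.3 and 87.9 FPKM (2883, 2960, 3111 and 2337 reads). HERC5 (chr4:88457119-88506163), its main E3 ligase in human cells, stood at 12.1, 11.4, 13.5 and 27.5 FPKM (822, 843, 988 and 1691 reads). With the combined treatment HERC5 was 2.28-fold and ISG15 1.36-fold the FPKM of vehicle, while UBE2L6 was 0.900-fold. The read ratio of UBE2L6 was -0.15 (-0.23 to -0.073) against vehicle and -0.16 (-0.24 to -0.085) against 6-MP, and -0.077 (-0.16 to 0.0015) against histidine, which includes 0 but lay below 0 under median-ratio scaling. The reads of HERC5 were the highest in the combined library in absolute number too, 1691 against 822 to 988, although that library had the lowest total.

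HERC6 and USP18 complete the group. HERC6 (chr4:88378739-88443097), a relative of HERC5 that lies 14022 bases before it on the same strand, stood at 1.81, 1.98, 1.77 and 3.97 FPKM (150, 177, 157 and 296 reads). USP18 (chr22:18150170-18177397), the protease that removes ISG15 and restrains the type I receptor, stood at 7.44, 9.04, 9.23 and 17.1 FPKM (198, 260, 263 and 410 reads). Both were higher with the combined treatment, as HERC5 was, at log2 fold changes over vehicle of 0.82 and 1.10, against 1.13. Their read ratios, 1.13 (0.84 to 1.42), 1.20 (0.95 to 1.45) and 1.19 (1.07 to 1.31) in that order, overlapped. USP18 was higher already with histidine (0.28, interval 0.0074 to 0.55) and with 6-MP (0.31, interval 0.038 to 0.58). Under median-ratio scaling its histidine interval included 0. The ratios of HERC6 were 0.13 (-0.20 to 0.45) with histidine and -0.034 (-0.37 to 0.30) with 6-MP. These intervals overlapped those of USP18, and the genes were not tested against each other. Over 6-MP the log2 fold changes of USP18 and HERC6 with the combined treatment were 0.82 and 0.84.

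PARP9, its partner DTX3L and PARP14, which modify proteins with ADP-ribose and ubiquitin, lie near each other on chromosome 3. PARP14 is 105636 bases from DTX3L, and all were higher with the combined treatment by modest amounts. PARP9 stood at 8.04, 7.98, 7.23 and 10.5 FPKM (1029, 1105, 992 and 1215 reads). DTX3L stood at 30.7, 28.7, 31.2 and 35.2 FPKM (2533, 2562, 2757 and 2618 reads). PARP14 stood at 21.8, 21.2, 22.3 and 27.1 FPKM (3201, 3378, 3515 and 3587 reads). All 3 were highest with the combined treatment, with read ratios over vehicle of 0.39 (0.27 to 0.51), 0.20 (0.12 to 0.28) and 0.31 (0.25 to 0.38), where 53.8% of all genes were highest with it. Under median-ratio scaling the interval of DTX3L over vehicle included 0. PARP9 and DTX3L lie head to head on opposite strands and overlap by 239 bases. The libraries were made with a stranded kit, and the strand setting of the counting is not given in the sources used here.

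Of the other IFI proteins, the 3 tested members were all highest with the combined treatment, as 53.8% of all genes were. IFI6, a mitochondrial and endoplasmic reticulum protein that counters apoptosis, stood at 19.3, 18.5, 18.5 and 26.9 FPKM (259, 268, 266 and 325 reads). IFI35, a leucine zipper protein, stood at 12.6, 11.6, 11.1 and 14.6 FPKM (353, 351, 333 and 370 reads). IFI44, a cytoplasmic antiviral protein, stood at 11.2, 11.5, 12.2 and 19.7 FPKM (328, 364, 383 and 517 reads). The read ratio over vehicle was highest for IFI44 (0.81, interval 0.60 to 1.01), followed by IFI6 (0.48, interval 0.24 to 0.72), while that of IFI35 (0.22, interval 0.0040 to 0.43) barely cleared 0 and included it under median-ratio scaling. IFI44L, the neighbour 3651 bases before IFI44, had only 26, 36, 23 and 30 reads, and IFI27, a common blood marker of interferon exposure, had 1, 4, 1 and 3 reads. Neither showed a difference that its reads could resolve.

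The last group, SAMD9, SAMD9L, XAF1 and TRIM22, included the tested member most separated from all other libraries on the log2(FPKM + 1) scale. TRIM22 (chr11:5689697-5737089), a RING-type ubiquitin ligase with antiviral activity, stood at 13.9, 13.4, 13.8 and 30.2 FPKM (1183, 1233, 1258 and 2314 reads). Its 3 values without the combined treatment spanned only 0.050 on the log2(FPKM + 1) scale. The combined value lay above them by 1.07 (vehicle), 1.12 (histidine) and 1.08 (6-MP). On this scale TRIM22 was the only member past 1 against all 3, where 2.698% of all genes were. Its read ratio against vehicle was 1.12 (1.02 to 1.22). By read ratio HERC5, HERC6 and the untested ISG20 also lay above 1 against all 3. TRIM22 lies within the span of TRIM5 on the opposite strand, and 10.7% of its exon bases, none of them coding, are shared with OR56B1.

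SAMD9 and SAMD9L are paralogous neighbours on chromosome 7 that restrain translation and cell growth. SAMD9 (chr7:93099513-93118023) stood at 5.31, 4.19, 4.28 and 8.92 FPKM (521, 445, 450 and 789 reads). SAMD9L (chr7:93130056-93148385) stood at 2.78, 2.59, 2.94 and 5.76 FPKM (285, 287, 323 and 531 reads). With both agents together each was higher than in the other 3 libraries. SAMD9 was lower than vehicle with histidine alone (-0.34, interval -0.53 to -0.16) and with 6-MP alone (-0.31, interval -0.50 to -0.13). The intervals of SAMD9L included 0 with histidine (-0.10, interval -0.34 to 0.14) and with 6-MP (0.081, interval -0.15 to 0.32). They overlapped those of SAMD9, and the genes were not tested against each other. XAF1, an antagonist of the apoptosis inhibitor XIAP, stood at 1.07, 1.10, 1.18 and 1.34 FPKM (101, 113, 120 and 114 reads), and its interval included 0 in all 5 comparisons.

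The combined treatment was also compared with each agent alone, in comparisons that share its library with the one against vehicle. Against histidine, 3 of 36 members passed a log2 fold change of 1, IRF7 (1.21), HERC5 (1.20) and TRIM22 (1.12), against 4.15% of all genes. Against 6-MP, TRIM22 did (1.08) and HERC5 lay just inside at 0.97, against 4.82% of all genes. None was lower by that size, against 1.4% and 1.2%. The read-ratio interval lay above 0 for 28 members against histidine and 25 against 6-MP, where 41.2% and 42.2% of all genes did, and below 0 for 1 and 2 members, where 22.1% and 21.2% did. The median member differed by 0.36 and 0.37, against 0.11 and 0.13 for all genes. Under median-ratio scaling the directions of IFIH1, IFI16, IFITM1 and IFITM3 against 6-MP and of IFITM3 against histidine turned to lower.

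**Figure D4:**
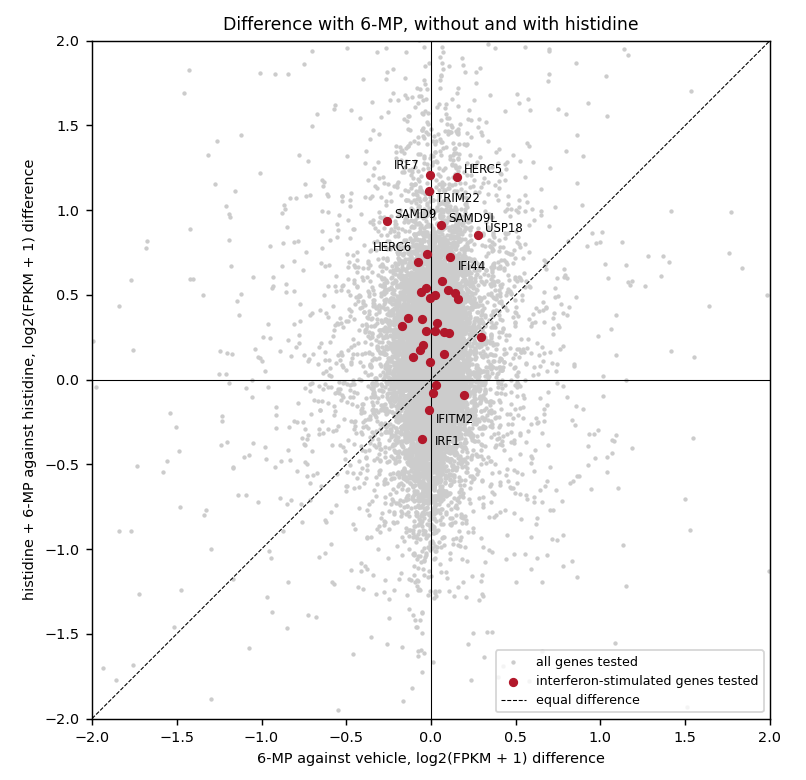
Difference with 6-MP in the absence of histidine (x axis, 6-MP against vehicle) and in its presence (y axis, the combined treatment against histidine), both as log2(FPKM + 1) differences, for the tested members (red) and all genes tested (grey). Axes are cut at 2 in both directions. The members form a column near 0 on the x axis, between -0.26 and 0.30, and reach 1.21 on the y axis, while most lie above the dashed line of equal difference.

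How far the combined treatment departed from the sum of both single agents was taken as the log2 value of vehicle plus that of the combined treatment, less both single-agent values. Of the 36 members, 4 departed by at least 1, IRF7 (1.22), SAMD9 (1.19), TRIM22 (1.13) and HERC5 (1.04), against 4.85% of all genes. None departed by at least 1 to the lower side, against 1.91%. The median member departed by 0.39, and the median of all genes was 0.11. For TRIM22 and HERC5 the departure came with single-agent values near vehicle. For IRF7 and SAMD9 part of it came from lower values with histidine (-0.44 and -0.28) and, for SAMD9, with 6-MP (-0.26). The lowest departures were those of IRF1 (-0.30) and IFIT1 (-0.29).

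Position grouped 22 members into 8 clusters, in which neighbours lie at most 283078 bases apart. In the OAS and IFIT clusters the log2 fold changes over vehicle ranged from 0.19 to 0.58 and from 0.11 to 0.61. In the cluster of IFITM2, IFITM1, IFITM3 and IRF7 they were -0.087, 0.12, 0.028 and 0.77. All members of the OAS, MX, HERC and SAMD9 clusters and of the cluster of PARP9, DTX3L and PARP14 were higher against each of the other 3 libraries beyond counting error, as 34.24% of all genes were, though OAS1, OAS2 and DTX3L were not under median-ratio scaling.

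Other genes of the interferon pathway are given by lists, whose counts of genes past a log2 fold change of 1 over vehicle compare with 5.01% of all genes. Of 22 interferon genes, 2 were matched, IFNK with 0 to 0.120 FPKM and IFNL2 with 0 to 0.069 FPKM, so neither was tested. Of 6 receptor chains 3 were tested and none passed a log2 fold change of 1 with the combined treatment over vehicle. Of the untested chains, IFNAR2 and IL10RB share 86.9% and 80.8% of their coding bases with the read-through gene AP000295.1, and what this does to their counts was not tested. Of 8 signalling genes 7 were tested, and 1 passed, IRF8, a myeloid and B-cell member of the IRF family, at 0.713, 0.498, 0.733 and 3.05 FPKM (49, 37, 54 and 189 reads), a log2 fold change of 1.24. Its mean without the combined library was 0.648 FPKM, so, like MX1, IRF8 entered the count only through that library. Of 9 negative regulators 8 were tested and 1 passed, SOCS1, the inhibitor of JAK kinases, at 0.703, 0.867, 0.948 and 2.64 FPKM (18, 24, 26 and 61 reads), a log2 fold change of 1.10. SOCS1 too entered only through the combined library, with a mean of 0.839 FPKM without it. None of 13 tested genes of the RNA and DNA sensing pathway passed.

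A further list outside the 41 held 36 symbols of interferon-stimulated genes, with WARS and WARS1 naming 1 gene. Of these, 28 were tested, and none passed a log2 fold change of 1 with the combined treatment over vehicle, against 5.01% of all genes. Their median was 0.42, with 19 read-ratio intervals above 0 and 5 below, against 42.7% and 20.8% of all genes. The members' own median in that comparison was 0.37, with 26 of 36 above and 2 below.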

How the data were processed

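The RNA-seq data hold 4 libraries, 1 per treatment, grouped by the treatment named in the sample labels and the study's methods. The libraries were made with a stranded mRNA kit and a company sequenced and quantified them. The authors deposited 1 table of FPKM values, a level per kilobase of gene and per library depth, with symbols and GRCh38 positions. The submitters' processing notes name Trimmomatic, HISAT2, Cufflinks and HTSeq without roles, and versions are not given in the sources used here. The number of sample columns left unused was 0.

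Reads were recovered from the steps of the FPKM values as the smallest whole reads whose ratios between libraries matched within the rounding of the deposited values. Such reads were found for all 29833 genes, and FPKM rebuilt from them differed from the deposited values by at most 2.22e-05%. For 3241 genes, none of them a member, the smallest fitting length was multiplied to reach a whole number or the length in GENCODE 29. The recovered reads sum to between 99.97 and 100.01% of the denominators. The recovery was tested on simulated FPKM made from reads drawn around the recovered ones. The simulated lengths were supplied as reference, so this could not test the choice of length against GENCODE 29. The denominators of the FPKM values, 12899122 to 15486376 reads, were taken as depth. A log2 fold change is the difference of log2(FPKM + 1), so a pseudocount of 1, for the 12750 genes with a mean of at least 1 FPKM, and the threshold is an absolute value of 1. The ratio of reads per library total has an exact Clopper-Pearson 95% interval, and no ratio is given where either library had no more than a floor of 3 reads. The authors identified differentially expressed genes with DESeq2, which was not run here because it needs replicates. Departure from additivity is defined where it is used. Neighbours are members on 1 chromosome within 500000 bases. Promoters are those of RefSeq (GRCh38.p14), and exons shared between genes are those of GENCODE 29.

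All 41 members are named, with FPKM and reads in the 4 libraries for those of at least 1 mean FPKM, and other pathway genes by list or where they pass the threshold. Some genes of these lists are not reported here. The members and lists were chosen with earlier results of these data known. Alternatives were a pseudocount of 0.1, no filter or a mean of at least 5 FPKM, median-ratio scaling, scaling to TPM, thresholds of 0.5 and 1.5, protein-coding genes only as background, and the read ratio, and, added after seeing the data, median-ratio scaling of the read ratio. The tools were scipy 1.17.1, numpy 2.4.6, pandas 2.3.3 and matplotlib 3.10.9 under Python 3.11.15.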

Additional observations from a re-analysis of the deposited data

Results flagged for a closer look

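Members were singled out where an agent's difference pointed 1 way without the other agent and the opposite way with it, both beyond counting error of the read ratio. Each side is 1 library against 1 library, and the difference between the sides was not tested. For 6-MP this held for 3 of 36 members, against 5.33% of all genes tested, and for histidine for 3 of 36, against 5.88%.

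SAMD9 was the member found for both agents. Its read ratio for 6-MP was -0.31 without histidine and 1.09 with it, and for histidine it was -0.34 without 6-MP and 1.06 with it. Its departure from additivity was 1.19. IRF7 had a histidine ratio of -0.61 without 6-MP and 0.95 with it, and a departure of 1.22. Its lowest library, histidine, had 86 reads. PARP9 had a 6-MP ratio of -0.15 without histidine and 0.40 with it, and a departure of 0.50. DTX3L, the head-to-head neighbour of PARP9, had a histidine ratio of -0.097 without 6-MP and 0.18 with it, and a departure of 0.26. BST2 had a 6-MP ratio of -0.11 without histidine and 0.13 with it, and a departure of 0.24. The ratios of DTX3L and BST2 were small on all sides, and under median-ratio scaling the interval with the other agent included 0 for both.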

How the results depend on the processing

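The median log2 fold change of the members kept its sign in each of the 6 quantities under the alternatives run, and for the combined treatment over vehicle it ranged from 0.22 to 0.48. Counts past the threshold moved more. With the combined treatment against vehicle, histidine and 6-MP in that order, the count of higher members went from 3, 3 and 1 to 5, 5 and 4 with a pseudocount of 0.1, where 9.25%, 7.48% and 8.82% of all genes passed. Scaling to TPM also gave 5, 5 and 4, against 13.6%, 11.7% and 12.7%. The read ratio gave 6, 6 and 5, against 9.85%, 8.2% and 9.34%. A threshold of 0.5 gave 13, 14 and 13, against 19.7%, 17.8% and 19.3%, and a threshold of 1.5 gave 0, 0 and 0, against 1.69%, 1.36% and 1.64%. A mean of at least 5 FPKM left 22 members tested, of which 3 passed over vehicle against 2.918% of all genes, and with no filter 3 of 41 passed against 3.181%. Median-ratio scaling gave 0, 2 and 0, against 3.63%, 3.17% and 3.41%, the members departing from additivity went from 4 to 3, against 3.855% (6 with a pseudocount of 0.1, against 8.494%, and 5 with TPM, against 12.96%), and the members highest with the combined treatment fell from 31 to 25, against 40.98% of all genes. That count of departing members became 12 at 0.5 and 0 at 1.5, where 18.8% and 1.77% of all genes passed. Median-ratio scaling of the read ratio, added after seeing the data, moved the members with an interval below 0 from 2, 1 and 2 to 4, 4 and 4, against 30.76%, 31.23% and 30.97% of all genes, those below 0 against all 3 libraries from 1 to 4, against 24.41%, and those above 0 with histidine alone from 3 to 1, against 9.953%. Median-ratio scaling turned the direction of IRF1 with histidine alone, and TPM those of IRF3 and PARP9 with histidine and of IRF7, MX1, IFITM2, IFITM3 and TRIM22 with 6-MP, all close to 0. The few reads of IRF9, OASL, IFI27, IFI44L and ISG20 limit what can be said of them. No paired analysis was possible because the libraries carry no replicates, so none could be left out either.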

Other observations

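LY6E, a membrane-anchored protein of the further list of interferon-stimulated genes, had the opposite pattern to most members and was chosen after its values were seen. It stood at 4.95, 10.2, 9.83 and 4.00 FPKM with vehicle, histidine, 6-MP and the combined treatment (187, 417, 398 and 136 reads). Its log2 fold change was 0.91 with histidine alone and 0.86 with 6-MP alone, and -1.17 and -1.12 for the combined treatment against each of them. Its read-ratio interval for the combined treatment against vehicle, -0.64 to 0.017, included 0.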
